A study of Oryza sativa with 9 samples.

Results

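In rice leaves sampled at 85 days after sowing, 15 of the 37858 genes of the deposited table were read at 5 FPKM or more in each of the 3 OsCOMT mutant libraries and at under 1 FPKM in each of the 6 other libraries. FPKM is the number of reads on a gene scaled to its length and to the library total. The genes were chosen by these FPKM values, the same that are described here, so the gap between the mutant and the other genotypes chose the genes and is not itself a finding. Before 4 identifiers were set aside by name (Os05g0542500, Os11g0454300, Os02g0649300 and Os01g0197700), 16 genes met both thresholds, and Os05g0542500 was the only one of the 4 that did. The genes go by their RAP identifiers, whose first digits give the chromosome. The table gives no product names. Only 1 of all its identifiers occurs in the RefSeq gene table of assembly ASM3414082v1, and none of the 15 does, so no name or role is given for them. The missing match is thus shared with nearly all genes and says nothing about these 15.

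The groups were OsCOMT mutant, OsCOMT overexpression (OE) and wild type (WT), all Oryza sativa, with 3 libraries each, which makes 9. The labels give neither the type of mutation, the promoter of the overexpression, the cultivar, nor the hour of sampling. The mutant titles number the samples from 1 to 3 without saying whether these are separate lines. The columns of all 3 groups carry the age 85. The WT and OE titles, however, end in a number that the mutant titles lack, and its meaning is not given. Any difference in age or handling that it marks could not be told apart from the mutant genotype. No label ties a replicate to a plant of its own. The p-values given here therefore reflect the spread of these 9 libraries, part of which may be technical.

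OsCOMT encodes a caffeic acid O-methyltransferase. The enzyme methylates precursors of lignin, the polymer that stiffens vascular cell walls, and in rice it has a further role in making melatonin. Genes that lie silent in a leaf of one genotype and are read in another are often those whose transcription depends on a signal, such as water deficit, nutrient supply, age or the hour of the day.

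OsCOMT itself (Os08g0157500) was at 226, 398 and 458 FPKM in the mutant, at 1945, 3162 and 2823 FPKM in OE and at 259, 237 and 228 FPKM in WT. The transcript was thus highest in OE and still present in the mutant, and a mutation that leaves the transcript intact would not show here, so the level does not check the mutant label. Library totals recovered from the FPKM were 10674819 to 11122792 reads in the mutant, 10795517 to 11809530 in OE and 11244242 to 11727127 in WT. The first principal component of all tested genes held 72.2% of the variance and placed the mutant libraries at 72.6 to 88.6, the OE libraries at -42.5 to -39.6 and the WT libraries at -46.3 to -26.9. WT replicate 3, at -26.9, was the nearest to the mutant.

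The highest levels among the 15 genes were those of Os01g0846700 and Os08g0187900. Os01g0846700 was at 70.7, 42.2 and 22.8 FPKM in the mutant, at 0.537, 0.44 and 0.463 FPKM in OE and at 0.461, 0.315 and 0.893 FPKM in WT. Os08g0187900 was at 61.1, 36.3 and 34.2 FPKM in the mutant, at 0.0967, 0 and 0 FPKM in OE and at 0.0997, 0 and 0 FPKM in WT. This gene had 1254 reads over the 3 mutant libraries and only 1 read in OE and 1 in WT, the widest separation of the 15. Its lowest mutant library lay 343-fold above its highest OE or WT library. For Os01g0846700 the same ratio was 25.5, because every OE and WT library held reads of it.

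Os02g0770800, Os04g0185600 and Os09g0368850 averaged 21.3 to 30.4 FPKM in the mutant. Os02g0770800 was at 15.4, 20.5 and 55.3 FPKM in the mutant, at 0.167, 0.121 and 0.316 FPKM in OE and at 0.2, 0.112 and 0.467 FPKM in WT. Mutant replicate 3 stood above the other mutant libraries for this gene. Os04g0185600 was at 17.4, 22.8 and 23.8 FPKM in the mutant, at 0.0983, 0.0538 and 0.254 FPKM in OE and at 0.0507, 0.0495 and 0.362 FPKM in WT. Os09g0368850 was at 12.6, 41.0 and 10.2 FPKM in the mutant, at 0.155, 0.509 and 0.16 FPKM in OE and at 0, 0.39 and 0.814 FPKM in WT. Os04g0185600 was nearly even across the mutant libraries, whereas Os09g0368850 was high in mutant replicate 2.

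Os03g0723400, Os04g0460300, Os06g0681200, Os08g0554300 and Os08g0520600 averaged 12.5 to 17.5 FPKM in the mutant. Os03g0723400 was at 20.1, 22.6 and 9.97 FPKM in the mutant, at 0.268, 0.196 and 0.185 FPKM in OE and at 0.0922, 0 and 0 FPKM in WT. Os04g0460300 was at 23.4, 10.4 and 16.9 FPKM in the mutant, at 0.233, 0.153 and 0.241 FPKM in OE and at 0.0962, 0.0939 and 0.049 FPKM in WT. In both genes every OE library lay above every WT library, at levels that rest on few reads. Os06g0681200 was at 10.2, 24.99 and 7.58 FPKM in the mutant, at 0, 0.849 and 0.241 FPKM in OE and at 0, 0 and 0.163 FPKM in WT. Os08g0520600 was at 10.3, 21.6 and 5.71 FPKM in the mutant, at 0.239, 0.262 and 0 FPKM in OE and at 0, 0.241 and 0.377 FPKM in WT. Mutant replicate 2 was the highest library for both of these. Os08g0554300 was at 18.7, 13.9 and 7.99 FPKM in the mutant, at 0.706, 0.129 and 0.913 FPKM in OE and at 0.485, 0.533 and 0.618 FPKM in WT.

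The remaining 5 genes averaged 6.66 to 11.03 FPKM in the mutant. Os01g0642000 was at 15.7, 9.39 and 8.001 FPKM in the mutant, at 0.781, 0.427 and 0.52 FPKM in OE and at 0.461, 0.618 and 0.586 FPKM in WT. Os03g0638200 was at 13.6, 8.396 and 10.8 FPKM in the mutant, at 0.457, 0.538 and 0.327 FPKM in OE and at 0.217, 0.248 and 0.369 FPKM in WT. Neither had a library without reads. Os05g0220500 was at 8.52, 9.69 and 8.201 FPKM in the mutant, at 0.749, 0.441 and 0.0596 FPKM in OE and at 0.178, 0.348 and 0.242 FPKM in WT. Os02g0106100 was at 12.6, 5.64 and 5.56 FPKM in the mutant, at 0.0347, 0.152 and 0.144 FPKM in OE and at 0, 0.0698 and 0 FPKM in WT. For Os02g0106100 mutant replicate 1 stood above the sum of the other 2 mutant libraries, while Os05g0220500 was almost level. Os02g0815700 was at 8.02, 6.24 and 5.73 FPKM in the mutant, at 0.162, 0.178 and 0.252 FPKM in OE and at 0.209, 0.327 and 0.597 FPKM in WT.

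**Figure D1:**
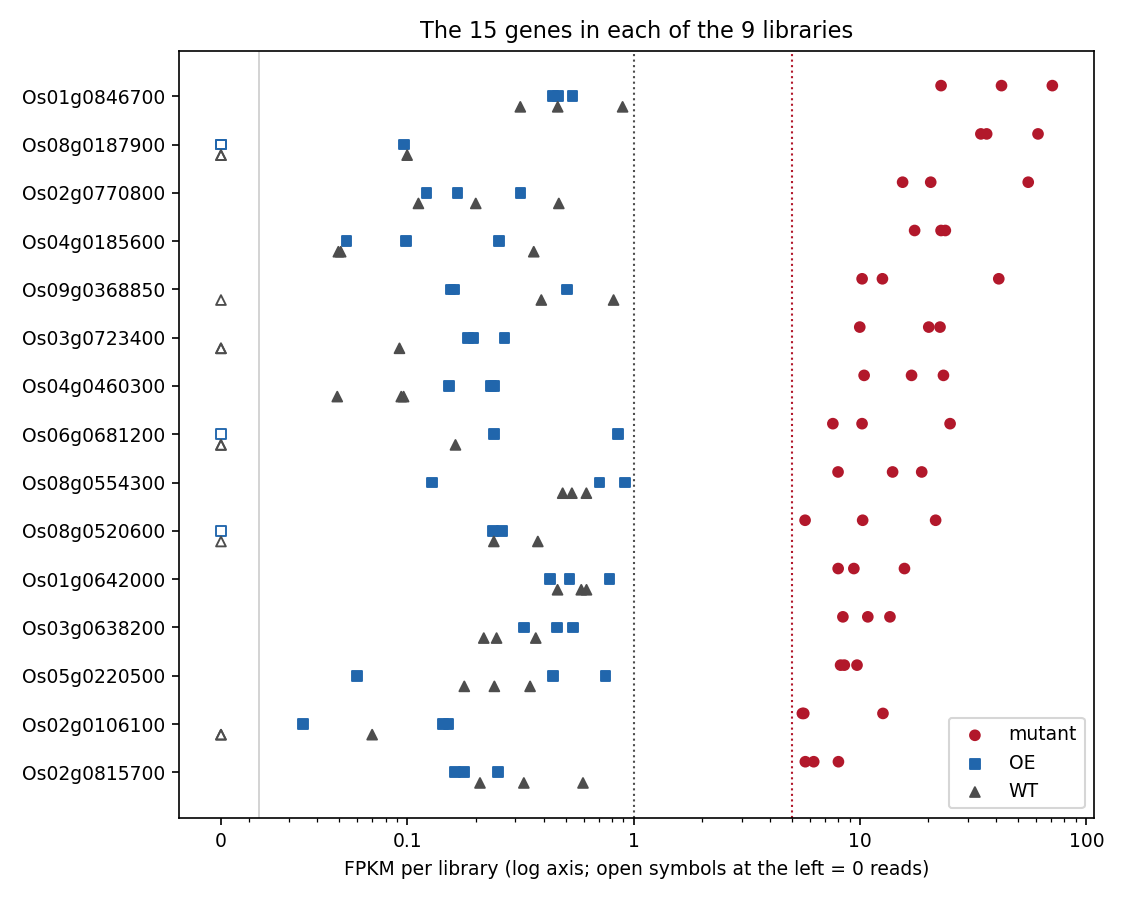
FPKM of the 15 genes on a log axis, 1 point per library, with red circles for the mutant, blue squares for OE and grey triangles for WT, and open symbols for libraries with 0 reads (points at 0 lie on top of each other). The dotted lines mark the thresholds of 1 and 5 FPKM that chose the genes, so the gap between them is set by the rule, and above it the mutant libraries spread from 5.56 to 70.7 FPKM.

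The genes were therefore not all silent outside the mutant. In 9 of the 15 every OE and WT library held at least 1 read, and 14 of the 90 gene and library values in OE and WT were 0. A value of 0 allows up to 3 reads, which corresponds to 0.107 to 0.371 FPKM for these genes. Os02g0106100, Os03g0723400, Os06g0681200, Os08g0187900, Os08g0520600 and Os09g0368850 had at least 1 library at 0. Over all 15 genes the mutant libraries held 5451, 4660 and 4824 reads, the OE libraries 90, 75 and 82 and the WT libraries 52, 64 and 106. The 15 genes together took 0.0457% of the mutant reads. WT replicate 3 was the highest of the WT libraries, and the 3 OE counts lay inside the range of the WT counts.

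As a description of the gap, summed reads of the mutant divided by those of OE, scaled to library totals, ranged from 18.95 for Os01g0642000 to 1306 for Os08g0187900, with a median of 74.7. Against WT the ratio ranged from 17.7 for Os02g0815700 to 1321 for Os08g0187900, with a median of 81.6. The 95% counting interval of Os08g0187900 against WT was 237 to 52234, since WT had 1 read. It was 58.8 to 117 for Os01g0846700, which had 36 reads in WT. For Os03g0723400, also with 1 read in WT, the ratio was 569 with an interval of 102 to 22516. These exact binomial intervals cover counting error only.

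The limma fit across the 19850 genes that averaged 1 FPKM or more called all 15 genes higher in the mutant against WT and all 15 higher against OE. Of all tested genes 19.6% were called higher against WT and 20.5% against OE, out of 42% and 43.4% called in either direction. Both comparisons chose the genes and they share the mutant libraries, so nothing is read from these counts. As log2(FPKM + 1), a scale that compresses changes near 0, the fold changes against WT ranged from 2.47 (SE 0.17) for Os02g0815700 to 5.39 (SE 0.21) for Os08g0187900. A gene of this kind passes the filter on low values only through the mutant libraries, and none of the 15 averaged 1 FPKM over OE and WT.

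Between OE and WT the 15 genes showed no called difference. With limma 0 of 15 passed in OE against WT, 0 had an unadjusted p under 0.05, and limma voom on the recovered reads also called 0. Of all 19850 tested genes 0.232% passed with limma, and 2007 had an unadjusted p under 0.05. The rule held both groups under 1 FPKM and so limited this difference. The mean was higher in OE than in WT for 8 genes and lower for 7. OE and WT did not overlap in 2 genes, Os03g0723400 and Os04g0460300, both higher in OE, against 16.4% of all tested genes without overlap in either direction. Os03g0723400 had 3, 2 and 2 reads in the OE libraries and 1, 0 and 0 in the WT libraries. Os04g0460300 had 5, 3 and 5 reads in OE and 2, 2 and 1 in WT, which is too few reads to read a level from.

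The thresholds cut through a continuous range of genes. Among genes under 1 FPKM in all OE and WT libraries, Os02g0106100 lay just inside the mutant threshold with a lowest mutant library of 5.56 FPKM, followed by Os08g0520600 at 5.71 and Os02g0815700 at 5.73 FPKM. Os01g0734000, Os12g0132800, Os03g0197050, Os06g0505700 and Os05g0519300 lay just outside, with lowest mutant libraries of 4.799, 4.77, 4.704, 4.49 and 4.41 FPKM. On the side of OE and WT, Os08g0554300, Os01g0846700, Os06g0681200, Os09g0368850 and Os01g0642000 came nearest to the threshold, with highest libraries of 0.913, 0.893, 0.849, 0.814 and 0.781 FPKM. Os04g0352400 was left out by 1 WT library at 1.07 FPKM, although it was at 63.99, 265 and 12.6 FPKM in the mutant. Os12g0189300 was left out by 1 OE library at 1.08 FPKM, and it was at 112, 93.6 and 81.7 FPKM in the mutant, so that its lowest mutant library was above every value of the 15 genes. Os08g0403300, Os03g0286900 and Os07g0617700 followed, with highest OE or WT libraries of 1.0997, 1.14 and 1.15 FPKM.

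**Figure D2:**
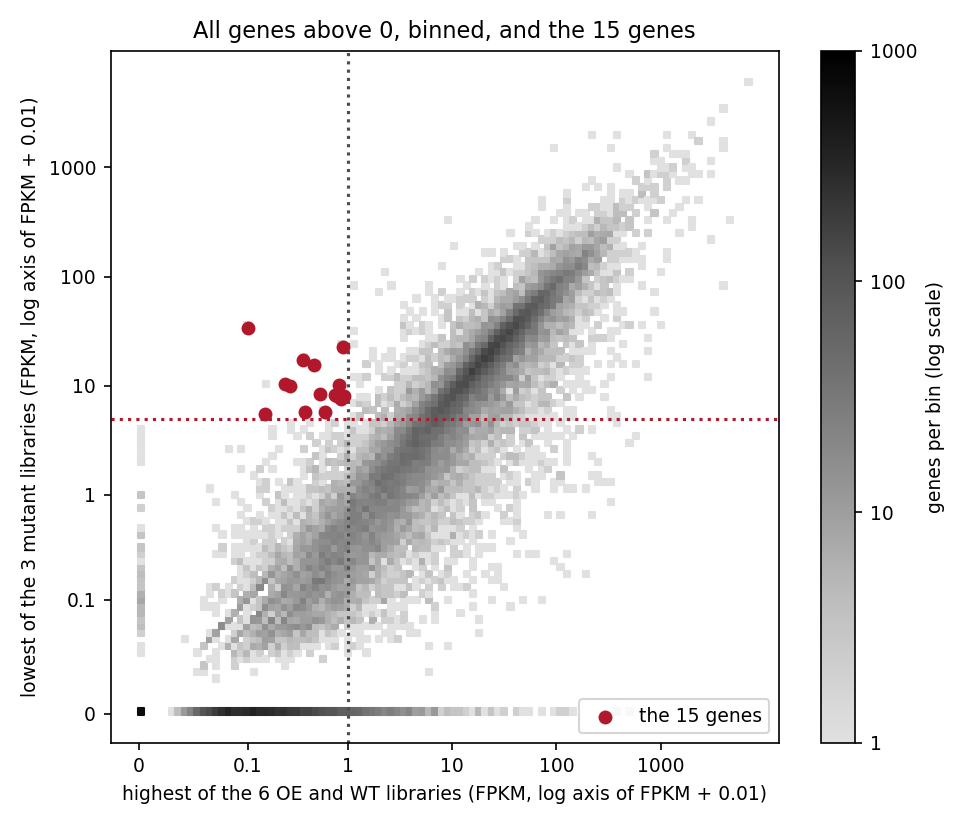
Lowest of the 3 mutant libraries against the highest of the 6 OE and WT libraries for all genes above 0, both as FPKM on log axes of FPKM + 0.01, with grey squares for bins shaded by their number of genes and red points for the 15 genes. Dotted lines mark the thresholds of 5 and 1 FPKM, and bins of other genes adjoin the red points on both sides of the lines.

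The same thresholds were also applied with the genotypes exchanged. They were met by 16 genes for the mutant, the identifier set aside included, by 4 genes for OE and by 0 for WT. In the other direction, 26 genes were under 1 FPKM in every mutant library and at 5 FPKM or more in the other 6, against 1 gene low only in OE and 0 low only in WT. Of the 16888 genes under 1 FPKM in all OE and WT libraries, 203 were at 1 FPKM or more in each mutant library and 78 at 2 FPKM or more. These counts carry no test.

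Within the mutant the 15 genes differed widely between libraries. The coefficient of variation over the 3 mutant libraries (SD divided by mean) ranged from 8.93% for Os05g0220500 to 80.7% for Os09g0368850, with a median of 38.3%. Counting of reads alone gives 3.13% to 10.2% for these genes. Of 9621 other genes with at least 5 FPKM in each mutant library and a mutant mean in the same range, the median was 9.89% and the 90th percentile 24.0%. Of the 15 genes, 14 lay above that median and 11 above that percentile. The threshold of 5 FPKM applied to both sets, but that of 1 FPKM in OE and WT applied to the 15 genes only. Some genes just outside the latter also spread widely over the mutant libraries. Os04g0352400 was at 63.99, 265 and 12.6 FPKM, Os08g0403300 at 102, 24.6 and 47.1 FPKM and Os03g0286900 at 76.9, 54.2 and 31.8 FPKM. Os12g0189300 and Os07g0617700 were more even. A wide spread is therefore not particular to the 15 genes.

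The libraries did not move all 15 genes together. Mutant replicate 1 was the highest mutant library for 8 genes, replicate 2 for 5 and replicate 3 for 2, and replicate 3 was the lowest for 11. Among the 9621 other genes replicate 1 was highest in 27.0%, replicate 2 in 35.1% and replicate 3 in 37.9%, and replicate 3 was lowest in 28.5%. The genes highest in replicate 1 were Os01g0642000, Os01g0846700, Os02g0106100, Os02g0815700, Os03g0638200, Os04g0460300, Os08g0187900 and Os08g0554300. Those highest in replicate 2 were Os03g0723400, Os05g0220500, Os06g0681200, Os08g0520600 and Os09g0368850, and the other two were Os02g0770800 and Os04g0185600. The largest spreads were in Os09g0368850, Os02g0770800, Os06g0681200, Os08g0520600 and Os01g0846700, at 80.7%, 71.4%, 65.8%, 65.2% and 53.3%. Os05g0220500, Os04g0185600, Os02g0815700, Os03g0638200 and Os08g0187900 had the smallest, at 8.93%, 16.1%, 18.1%, 23.6% and 34.2%. With 3 libraries no test of such an order was made.

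**Figure D3:**
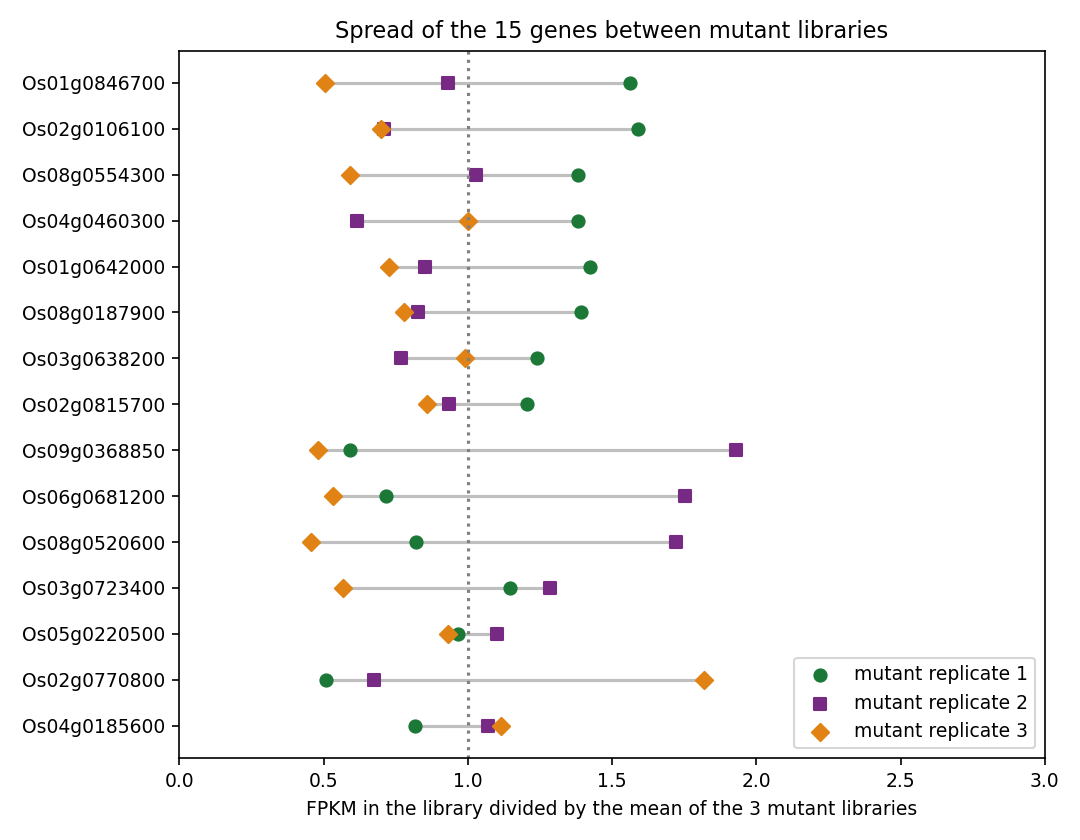
FPKM of each of the 15 genes in mutant replicates 1 (circles), 2 (squares) and 3 (diamonds), divided by the mean of the 3, on a linear axis where 1 is that mean. Os09g0368850, Os06g0681200 and Os08g0520600 stand out to the right in replicate 2, Os02g0770800 in replicate 3, and the upper 8 genes in replicate 1.

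Of the 4 identifiers set aside, 2 spread more between mutant libraries than any of the 15 genes, with coefficients of variation of 99.7% for Os11g0454300 and 93.7% for Os01g0197700, and 2 had no read in any OE or WT library. LEA3 (Os05g0542500), a late embryogenesis abundant protein that protects cells under water loss, was at 18.5, 40.8 and 11.1 FPKM in the mutant, at 0.0664, 0.145 and 0.0687 FPKM in OE and at 0 in all 3 WT libraries. Its mutant libraries stood in the order shared by all 5 of the 15 genes that were highest in replicate 2, with replicate 3 lowest. The other identifiers set aside stood in other orders. HOX24 (Os02g0649300), a homeodomain leucine zipper factor, was at 7.67, 6.68 and 3.85 FPKM in the mutant and had 0 reads in all OE and WT libraries, at least 91.3-fold higher than in OE and at least 92.4-fold higher than in WT with the floor set at 3 reads over a group. Os11g0454300 was at 1.95, 20.8 and 6.73 FPKM in the mutant and had 0 reads in OE and WT. Os01g0197700 was at 2.06, 3.19 and 11.8 FPKM in the mutant, at 0.0789, 1.21 and 0.367 FPKM in OE and at 0.163, 0 and 0 FPKM in WT. The last 3 each had at least 1 mutant library under 5 FPKM and so did not meet the rule.

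The 15 genes lay on 8 chromosomes and formed no cluster. Chromosomes 2 and 8 held 3 each, chromosomes 1, 3 and 4 held 2 each, and chromosomes 5, 6 and 9 held 1 each. In the order of identifiers, the nearest pair, Os08g0520600 and Os08g0554300, was 300 identifiers apart. Os08g0187900 lay 173 identifiers beyond OsCOMT on chromosome 8. Gene lengths recovered from the FPKM ranged from 708 bases for Os08g0520600 to 3050 bases for Os02g0770800, with a median of 1517 bases. The median of the 13491 genes with at least 5 FPKM in each mutant library was 1580 bases, with quartiles of 1046 and 2279 bases.

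The neighbours of the 15 genes played no part in the rule and were tested. Most did not pass, and the largest differences of those that did were 2.85 for Os01g0642100 and -2.20 for Os08g0188151 as log2 fold change against WT. Of the 60 genes within 2 identifiers on either side, 38 were high enough to test. With limma 11 of these were higher in the mutant than in WT, 6 were lower and 21 did not pass, beside 19.6% of all tested genes called higher and 22.4% called lower. The median log2 fold change was 0.21, beside -0.01 over all tested genes. Leaving out genes that averaged under 1 FPKM over OE and WT, which pass the filter only by being high in the mutant, 9 of 34 rose and 6 fell, beside 18.6% and 22.8% of such genes overall. Of those directly adjacent, a division made after the values were seen, 7 of 17 rose and 2 fell. Of the neighbours called, 6 with changes under 1 on the log2 scale lost the call under at least 1 alternative, and the count of 11 was 7 without mutant replicate 1 and 7 without WT replicate 2. Against OE, which shares the mutant libraries, 11 of the 38 rose and 5 fell, beside 20.5% and 22.9% of all tested genes. None of the 38 passed in OE against WT, beside 0.232% of all tested genes. With limma 0 of them had an unadjusted p under 0.05 there, beside 2007 of all 19850 tested genes.

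Os01g0642100, which follows Os01g0642000, came closest to its neighbour. It was at 17.9, 7.79 and 12.2 FPKM in the mutant, at 0.587, 1.12 and 1.37 FPKM in OE and at 0.605, 0.739 and 1.08 FPKM in WT, a log2 fold change against WT of 2.85 (SE 0.27, limma adjusted p = 4.3e-05). It missed the rule only through 2 OE libraries and 1 WT library above 1 FPKM. Os01g0846800, which follows Os01g0846700, was at 6.14, 2.55 and 1.47 FPKM in the mutant, at 0, 0 and 0.119 FPKM in OE and at 0.119, 0 and 0 FPKM in WT. The 3 mutant libraries stood in the same order in both genes of this pair. Whether strand was used in counting is not given in the sources used here, and reads of overlapping or closely similar genes could not be told apart.

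On chromosome 8 genes moved in both directions side by side. Os08g0187800, just before Os08g0187900, was at 65.2, 67.03 and 81.6 FPKM in the mutant, at 18.96, 21.9 and 20.6 FPKM in OE and at 16.6, 18.99 and 19.1 FPKM in WT (log2 fold change against WT 1.90, SE 0.11, limma adjusted p = 2.6e-06). Os08g0188000, just after it, rose by 1.03 (SE 0.12) on the log2 scale against WT, whereas Os08g0188151, the next identifier, fell by 2.20 (SE 0.20). Os08g0520700 and Os08g0520850, the 2 identifiers after Os08g0520600, lay below WT, at -1.20 (SE 0.13) and -1.57 (SE 0.13) on the log2 scale, while Os08g0520600 itself was high only in the mutant. Os05g0220600, after Os05g0220500, rose by 1.58 (SE 0.16), and Os02g0771100, after Os02g0770800, by 1.39 (SE 0.15). For Os03g0638200, Os04g0460300, Os08g0554300 and Os09g0368850 no tested neighbour passed.

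**Figure D4:**
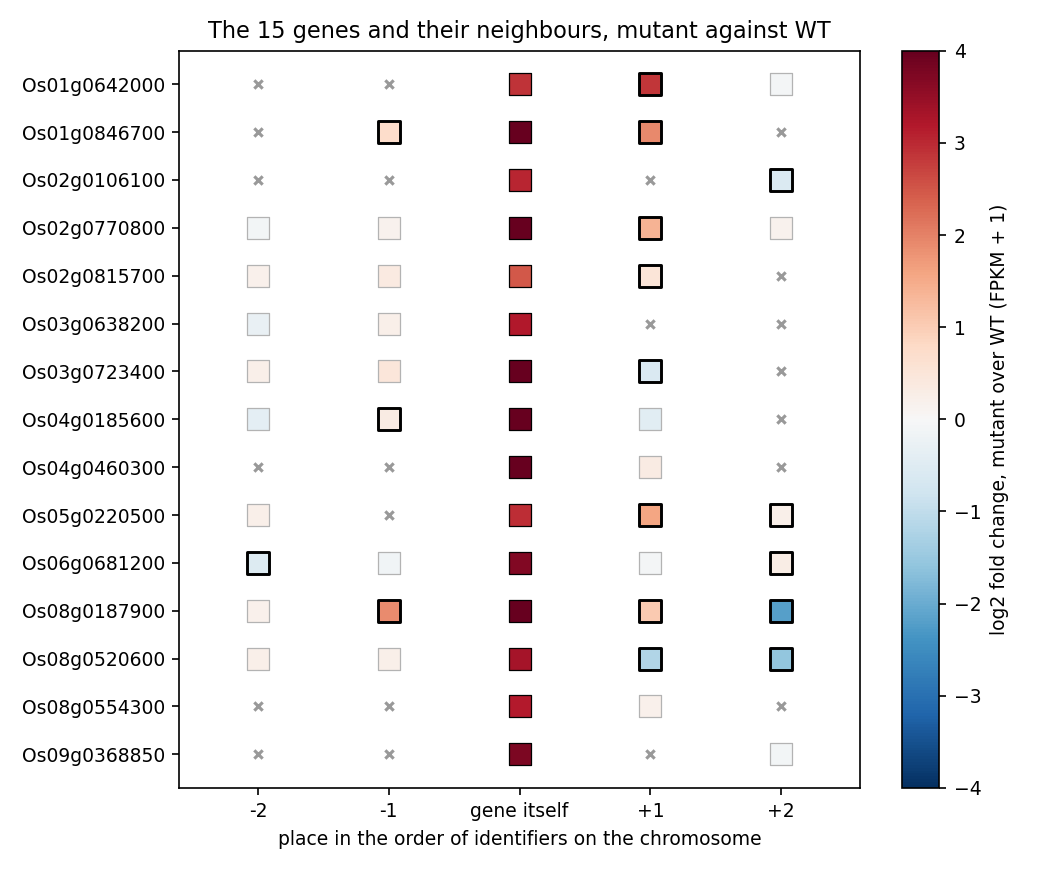
Log2 fold change of FPKM + 1 in the mutant over WT for each of the 15 genes (centre column) and the 2 identifiers before and after it, coloured from blue (lower in the mutant) to red (higher), with the scale ending at 4. Heavy frames mark neighbours past the threshold with limma, grey frames those that did not pass, and crosses genes too low to test, and 17 of the 38 tested neighbours carry a heavy frame.

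Genes of the abscisic acid and dehydration response, the class to which LEA3 and HOX24 belong, were compared as a list. Abscisic acid is the hormone that closes stomata and induces protective proteins when water runs short. Of 16 listed genes 9 were high enough to test, and with limma 9 rose and 0 fell in the mutant against WT, and likewise against OE. Of all tested genes 19.6% were called higher against WT and 20.5% against OE, which shares the mutant libraries. The list was chosen with earlier results of these data known and includes 3 of the identifiers set aside, so it is no independent evidence of a direction. Without genes that averaged under 1 FPKM over OE and WT, 6 of 6 rose, with a median log2 fold change of 1.19, beside 18.6% of such genes overall and a median of -0.02. HOX22, a close relative of HOX24, was at 142, 124 and 147 FPKM in the mutant, at 7.78, 3.92 and 4.702 FPKM in OE and at 4.19, 5.55 and 5.86 FPKM in WT (log2 fold change 4.49, SE 0.20, adjusted p = 9.7e-07). The transcript of bZIP23, a bZIP factor of abscisic acid signalling, rose by 2.15 (SE 0.16) on that scale. LEA3, HOX24 and Os11g0454300 passed the filter only through the mutant libraries, so their fitted changes restate that they were read there. The dehydrins RAB16C and RAB16D, which accumulate in drying tissue, had no read in any mutant library and were under 1 FPKM elsewhere. RAB16B of the same family went the other way, at 0.317, 2.36 and 0.928 FPKM in the mutant and at 0 in all OE and WT libraries, too low to test. NCED3, an enzyme of abscisic acid synthesis, stayed under 1 FPKM in all 9 libraries and was too low to test. It was at 0.67, 0.5 and 0.873 FPKM in the mutant, at 0.206, 0.18 and 0.298 FPKM in OE and at 0.339, 0.373 and 0.173 FPKM in WT.

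Genes listed as markers of the labelled leaf and of other tissues were counted beside the 15 genes. Of the 6 leaf photosynthesis genes none was at 0 in any group, and their summed level was 2704 to 3870 FPKM in the mutant libraries, 1338 to 2652 FPKM in OE and 990 to 2354 FPKM in WT. With limma 1 of the 6 rose (RCA), 1 fell (Os01g0720500, adjusted p = 0.044, a call lost without any 1 of 7 libraries and with voom) and 4 did not pass in the mutant against WT. Among all genes that averaged 1 FPKM or more over OE and WT, 18.6% were called higher and 22.8% lower, so these counts are near the general share. RCA, the rubisco activase gene, made up most of the mutant sum and was at 2940, 2587 and 1978 FPKM in the mutant, at 174, 227 and 111 FPKM in OE and at 193, 184 and 198 FPKM in WT. The higher mutant sum thus rests on RCA, and without it the mutant sum does not stand above those of OE and WT. CAB2R, a chlorophyll a/b binding protein gene, was at 290.3, 623 and 313 FPKM in the mutant, at 1951, 1280.1 and 921 FPKM in OE and at 1049, 1794 and 463 FPKM in WT. Its mutant level lay below that of OE (log2 fold change -1.78, SE 0.49, limma adjusted p = 0.016) and did not pass against WT (adjusted p = 0.057). Of 18 meristem and floral genes 4 were at 0 in all libraries (OSH15, MADS8, MADS13 and MADS17). The summed level of the 18 was 256 to 290 FPKM in the mutant, 143 to 153 FPKM in OE and 169 to 208 FPKM in WT, most of it from MADS14 and MADS18. These averaged 84.6 and 43.8 FPKM in OE and 103 and 60.2 FPKM in WT. They were thus read in leaves of every genotype, and the sum does not mark another tissue. OSH1 averaged 0.012 FPKM in the mutant and 0 in OE and WT. Against WT 3 of 6 tested members rose (MADS1, MADS16 and MADS18) and 0 fell, beside 18.6% and 22.8% of all genes that averaged 1 FPKM or more over OE and WT. Against OE, with the same mutant libraries, 6 of 6 were higher in the mutant, beside 19.5% of all genes that averaged 1 FPKM or more over OE and WT. Of these, MADS14, MADS15 and MADS34 did not pass against WT (log2 fold changes 0.08, -0.24 and 0.14). Their OE levels lay below WT, at -0.28, -1.34 and -0.70. In OE against WT 0 of the 6 passed with limma, but 4 had an unadjusted p under 0.05, beside 2007 of 19850 tested genes. MADS16 was at 34.2, 32.5 and 32.3 FPKM in the mutant, at 11.01, 4.37 and 9.44 FPKM in OE and at 9.26, 10.95 and 10.9 FPKM in WT. Seed storage genes summed to 7.05 to 8.51 FPKM in the mutant, 7.65 to 10.5 FPKM in OE and 7.28 to 10.7 FPKM in WT. Against WT 0 of 2 tested members were called with limma and 0 had an unadjusted p under 0.05. Of all 19850 tested genes 42% were called, and 9898 had an unadjusted p under 0.05. Root genes summed to 39.97 to 56.3 FPKM in the mutant, 5.73 to 10.9 FPKM in OE and 8.09 to 13.6 FPKM in WT, nearly all from LSI1, the silicon channel gene, while LSI2 had no read in any library. LSI1 was the only root gene high enough to test. With limma it was higher in the mutant than in WT (log2 fold change 2.26, SE 0.25, adjusted p = 1.2e-04). Against OE, with the same mutant libraries, the change was 2.57 (SE 0.25, limma adjusted p = 5.1e-05). IRT1 lay the other way, with means of 0.022 FPKM in the mutant, 0.165 FPKM in OE and 0.207 FPKM in WT, too low to test. Whether the groups differed in tissue make-up, and any part of that in the 15 genes, was not tested. In bulk leaf RNA, more cells of a type and more RNA per cell cannot be told apart.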

How the data were processed

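The authors deposited FPKM per gene for 9 TruSeq libraries (kit per the labels' protocols). Bowtie 0.12.2, Cuffdiff and IRGSP-1.0 are listed, without roles, in the submitters' processing notes. Of the table's columns, 1 could be tied to no sample and was not used. Each FPKM is a multiple of what 1 read is worth: all 30062 genes above 0 resolved into whole reads (relative tolerance 3e-07) and, at the library totals given, into whole gene lengths (tolerance 0.02 bases).

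The members and lists were chosen with earlier results of these data known. The test was limma 3.58.1 (R 4.3.3) on log2(FPKM + 1) with eBayes and a mean-variance trend, all 9 libraries in 1 fit and no covariate. It covered the 19850 genes averaging 1 FPKM or more, and two-sided p-values were adjusted per contrast by Benjamini-Hochberg and called under 0.05. The fit was tested on simulated data. Replicate libraries differed by more than counting noise (chi-square per gene 6.14 to 16.6). Neighbours are the 2 identifiers on either side in RAP order. The rule for names took the 10 genes with the highest lowest mutant library, the 5 on either side of each threshold, the 5 with most and least spread, the identifiers set aside, OsCOMT and up to 4 passing genes per list by adjusted p. The other members, neighbours and list genes were named after their values were seen. List names come from general knowledge and are printed only where the RefSeq table holds the name on the same chromosome within 0.03 of the same relative rank (36 of 49). Alternatives tried were upper-quartile scaling, no filter, a filter at 5 FPKM, a pseudocount of 0.1 or 5, the replicate number as a block, other thresholds, leaving out each library, and limma voom on recovered reads (chosen after seeing the data).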

Additional observations from a re-analysis of the deposited data

How the results depend on the processing

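The number of genes meeting the rule follows its thresholds. It was 76 at 2 FPKM and 6 at 10 FPKM in every mutant library, and 7 at under 0.5 FPKM and 53 at under 2 FPKM in OE and WT, against 15. Leaving out single libraries gave 15 to 24 genes, with 24 without mutant replicate 3. The number called in the mutant against WT was 7 under a 5 FPKM filter, because fewer were tested. Their median log2 fold change of 3.69 became 5.96 with a pseudocount of 0.1, 1.82 with a pseudocount of 5, 4.27 with the filter at 5 FPKM and 6.27 with voom on recovered reads, the last chosen after seeing the data. Leave-one-out values lay between 3.22 and 3.91. The pseudocount sets this value for genes near 0. The number of neighbours higher in the mutant (11) lay between 7 and 10 under leave-one-out, with 7 without mutant replicate 1 and 7 without WT replicate 2, and the cause was not tested. Of 110 values under alternatives 0 reversed and 12 moved, which means by more than 1.5 times for a count and by more than 0.53, the SD between mutant libraries, for the median. With the replicate number as a block 8318 genes were called in the mutant against WT, against 8333, and 9 neighbours rose. Deviations of same-numbered libraries correlated at -0.07 to 0.21. With 3 replicates and no reference for such values, whether the numbers pair the samples could not be decided. Levels under 1 FPKM rest on few reads, and the order of OE and WT there was not detectable at this depth.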
